A study of Mus musculus with 19 samples.

Results

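The genes described here are 43 genes expressed by microglia, the resident macrophages of the retina and brain, and by macrophages and leukocytes more widely. They were chosen by gene symbol from a list, and all 43 are listed in each of the 3 tables of the series, which together hold 35734 genes. The choice was made with earlier results of these data known. The set was divided by role into 9 homeostatic microglia genes, 5 complement genes, 16 genes of phagocytosis and pathogen sensing, and 13 pan-leukocyte genes.

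Microglia enter the central nervous system from embryonic precursors and maintain themselves there under signals such as Csf1 and Il34, which act on the receptor Csf1r. They survey the tissue through receptors such as P2ry12 and Cx3cr1, tag synapses and debris with complement C1q, and take them up through receptors that signal by the adaptors Tyrobp and Fcer1g. The transcription factors Spi1 (PU.1) and Irf8 are needed for the lineage. During development, microglia prune synapses of ganglion cell axons and, in the retina, clear dying neurons.

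The data are RNA-seq of mouse retina, 19 libraries in 6 groups, with 1 comparison per table. For overexpression, wild-type CD1 pups were electroporated in the eye on postnatal day 1, and GFP+ cells were sorted and pooled to 150000 cells per replicate. Cells with a control Gfp plasmid were compared with cells given Pou3f1, a POU-domain transcription factor, after 48 h (3 Gfp and 3 Pou3F1 libraries) and after 14 days (4 Gfp and 5 Pou3F1 libraries; the protocol text gives postnatal day 14). The promoters on the plasmids were not stated in the labels. The loss-of-function comparison used whole C57B6J retinas at E17.5, 2 Pou3F1-HET (heterozygous) and 2 Pou3F1-KO (homozygous) libraries, so its control group also lacks 1 functional allele.

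None of the tables holds values per library, so the level in each sample, the depth of single libraries and the overlap between groups could not be given. The values are the authors' log2 fold change per gene (positive when higher with added Pou3f1, or in the knockout), its standard error (SE), an adjusted p and, for overexpression, a mean normalized count over the libraries of both groups. "Rose" and "fell" are used where the authors' adjusted p was under 0.05. No source states how fold changes were estimated; their SE never exceeds 0.297 and falls at the lowest counts, so they were read as shrunken toward 0. The labels do not say that replicates came from separate animals, so the p-values measure the spread between these samples. In the authors' deposited table of each comparison, Pou3f1 had log2 fold changes of 0.91 ± 0.26 (48 h), 5.57 ± 0.27 (14 days) and -0.69 (E17.5).

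At 14 days, added Pou3f1 went with higher levels of microglia and macrophage genes in all 4 roles. Of the 43 genes, 36 rose, 0 fell and 7 did not pass, against 11.5% of all 17789 tested genes that rose. The median log2 fold change of the 43 was 1.25, a 2.37-fold difference, against -0.01 over all tested genes, and 28 of the 36 rose at least 2-fold (2.42% of all tested genes did). The largest rises were those of Mpeg1, which encodes the pore-forming protein perforin-2 of macrophages, and Ctss, the lysosomal protease cathepsin S. In bulk RNA, a larger share of cells of a type and more RNA per cell cannot be told apart. The libraries are of cells sorted for GFP, and the share of microglia among them was not measured.

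**Figure D1:**
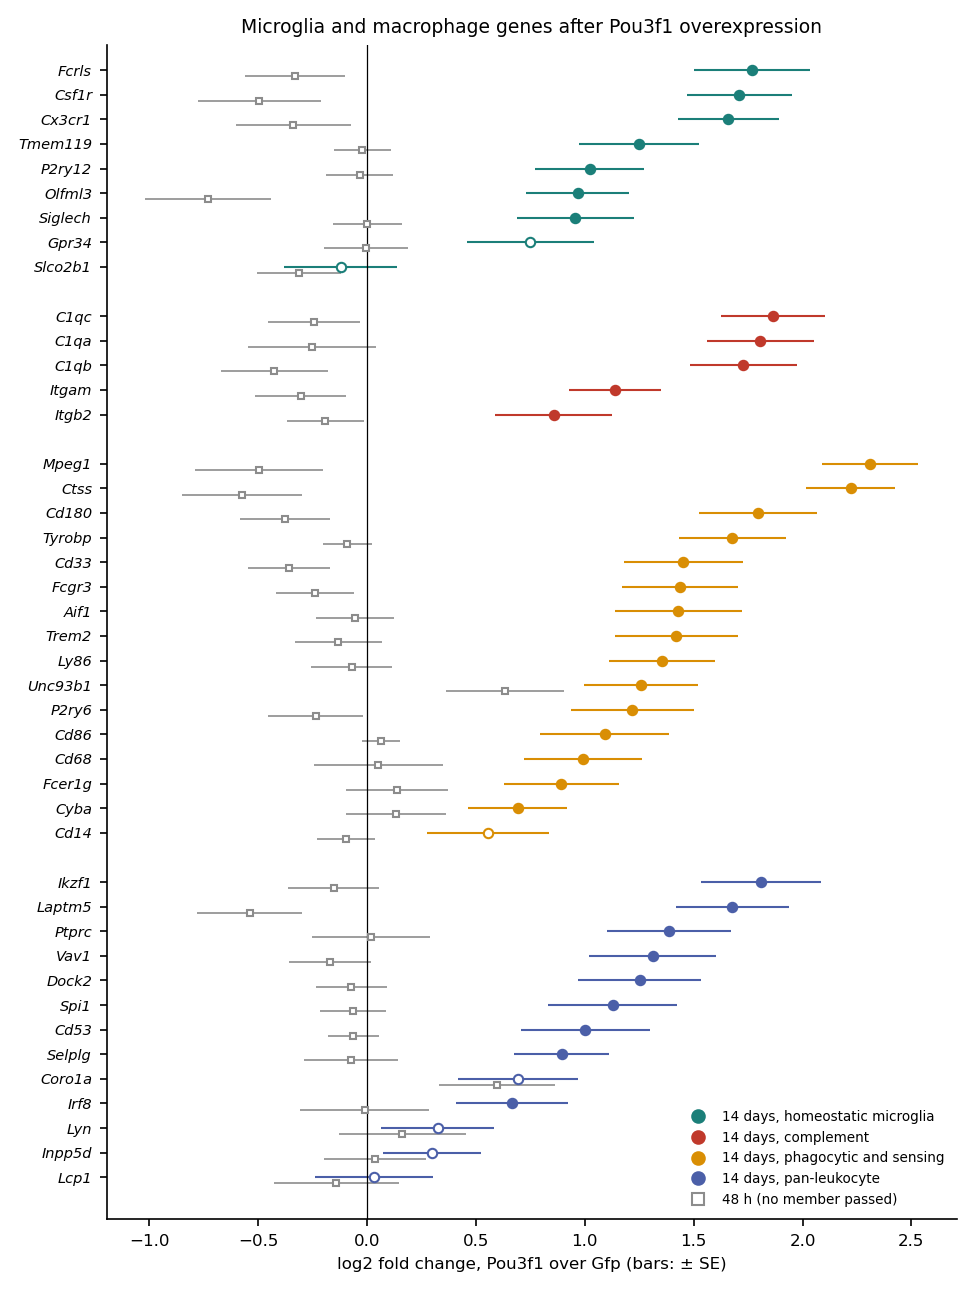
Log2 fold change (x axis, Pou3f1 over Gfp, bars ± SE) of each of the 43 genes (y axis, by role) at 14 days (circles, filled where the adjusted p was under 0.05) and 48 h (grey squares). The 36 filled circles lie between 0.67 and 2.31, while no gene passed at 48 h.

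Homeostatic genes are expressed by microglia at rest, and not all of them set microglia apart from other macrophages. Of these 9, 7 rose and 2 did not pass at 14 days, with a median log2 fold change of 1.02. Fcrls, an Fc receptor-like scavenger gene, rose by 1.77 ± 0.27 (adjusted p = 3.36e-09) in the authors' deposited table. Csf1r, the receptor for the survival signals Csf1 and Il34, rose by 1.71 ± 0.24 (adjusted p = 1.65e-10) in the authors' deposited table. Cx3cr1, the fractalkine receptor through which neurons signal to microglia, rose by 1.66 ± 0.23 (adjusted p = 1.01e-10) in the authors' deposited table. These 3 had the highest values of the role. Of the exonic bases of Csf1r, 15.1% overlap Hmgxb3 on the opposite strand, which had 0.11 ± 0.08 (adjusted p = 0.342) in the authors' deposited table. Tmem119, a microglial surface protein, rose by 1.25 ± 0.28, and P2ry12, the ADP receptor that guides microglial processes, by 1.02 ± 0.25 in the authors' deposited table. Olfml3, a secreted matrix protein, rose by 0.97 ± 0.24 and the lectin gene Siglech by 0.96 ± 0.27 in the authors' deposited table.

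The 2 homeostatic genes that did not pass differed in their values. Gpr34, a lysophospholipid receptor, had 0.75 ± 0.29 with an adjusted p of 0.0505 in the authors' deposited table, just outside the threshold. Slco2b1, an organic anion transporter, had -0.12 ± 0.26 (adjusted p = 0.792) in the authors' deposited table and was the 1 gene of 43 with a negative value at 14 days. Its mean count was 227 in the authors' deposited table.

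Complement genes had the largest median of the 4 roles, 1.73 or 3.31-fold, and 5 of 5 rose. C1qa, C1qb and C1qc encode the 3 chains of C1q, the initiator of the classical complement pathway, and lie side by side on chromosome 4 (mm10; C1qb at chr4:136880129-136886187, C1qc at chr4:136889804-136893065 and C1qa at chr4:136895917-136898803). They rose by nearly the same amount, C1qa by 1.80 ± 0.25, C1qb by 1.73 ± 0.25 and C1qc by 1.87 ± 0.24 (adjusted p between 1.00e-12 and 3.52e-10) in the authors' deposited table. The 3 values lay within 1 SE of each other. Itgam and Itgb2 encode the subunits of complement receptor 3 and rose less, Itgam by 1.14 ± 0.21 and Itgb2 by 0.86 ± 0.27 (adjusted p = 3.19e-06 and 0.0117) in the authors' deposited table. In the annotation, 68.7% of the exonic bases of Itgam are shared with the predicted gene Gm49368 on the same strand, which in the authors' deposited table had 0.0877 mean counts at 14 days.

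Phagocytic and sensing genes held the largest rises, and 15 of 16 passed, with a median of 1.39. Mpeg1 rose by 2.31 ± 0.22 (adjusted p = 6.70e-23) and Ctss by 2.22 ± 0.20 (adjusted p = 5.58e-25), or 4.96-fold and 4.66-fold, in the authors' deposited table. Receptor and adaptor genes followed. Tyrobp, the adaptor of Trem2, rose by 1.68 ± 0.25 and Trem2, a lipid and debris receptor, by 1.42 ± 0.28 in the authors' deposited table. The IgG receptor gene Fcgr3 rose by 1.44 ± 0.26, and its signaling chain Fcer1g by 0.89 ± 0.26 in the authors' deposited table. The inhibitory sialic acid receptor Cd33 had 1.45 ± 0.27 in the authors' deposited table. Cd180 and Ly86 encode a Toll-like receptor homolog and its secreted partner MD-1, and rose by 1.80 ± 0.27 and 1.35 ± 0.24 in the authors' deposited table. Aif1, the actin-binding protein known as the stain Iba1, rose by 1.43 ± 0.29 in the authors' deposited table.

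Other rises in this role were those of Unc93b1, which carries nucleic acid-sensing Toll-like receptors to endosomes (1.26 ± 0.26), P2ry6, the UDP receptor of phagocytosis (1.22 ± 0.28), and the costimulatory ligand Cd86 (1.09 ± 0.30) in the authors' deposited table. The lysosomal glycoprotein gene Cd68 rose by 0.99 ± 0.27, and Cyba, an NADPH oxidase subunit, by 0.69 ± 0.23 (adjusted p = 0.00323 and 0.0172) in the authors' deposited table. Cd14, the lipopolysaccharide coreceptor, did not pass at 0.55 ± 0.28 (adjusted p = 0.151) in the authors' deposited table; its mean count was 17.9.

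Of the pan-leukocyte genes, 9 of 13 rose, with a median fold of 2.00. Ikzf1 (Ikaros), a transcription factor of blood cell lineages, rose most at 1.81 ± 0.27, followed by Laptm5, a lysosomal membrane protein, at 1.68 ± 0.26 (adjusted p = 5.25e-09 and 8.70e-09) in the authors' deposited table. Ptprc, the leukocyte phosphatase CD45, rose by 1.39 ± 0.28, and Vav1 and Dock2, activators of Rac GTPases, by 1.31 ± 0.29 and 1.25 ± 0.28 in the authors' deposited table. Spi1, the lineage factor PU.1, rose by 1.13 ± 0.30, the selectin ligand gene Selplg by 0.89 ± 0.22 and the tetraspanin gene Cd53 2.00-fold (adjusted p = 0.00703) in the authors' deposited table. Irf8, the partner factor of PU.1, rose by 0.67 ± 0.26 with an adjusted p of 0.0490 in the authors' deposited table, just inside the threshold.

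The pan-leukocyte genes that did not pass were Coro1a, Lyn, Inpp5d and Lcp1. The actin regulator gene Coro1a had 0.69 ± 0.28 (adjusted p = 0.0552), the Src family kinase gene Lyn 0.33 ± 0.26, the phosphatase gene Inpp5d (SHIP1) 0.30 ± 0.23 and the actin bundler gene Lcp1 0.03 ± 0.27 in the authors' deposited table. Mean counts of the last 3 were 169, 175 and 297 in the authors' deposited table, above the median mean count of the 43 genes.

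**Figure D2:**
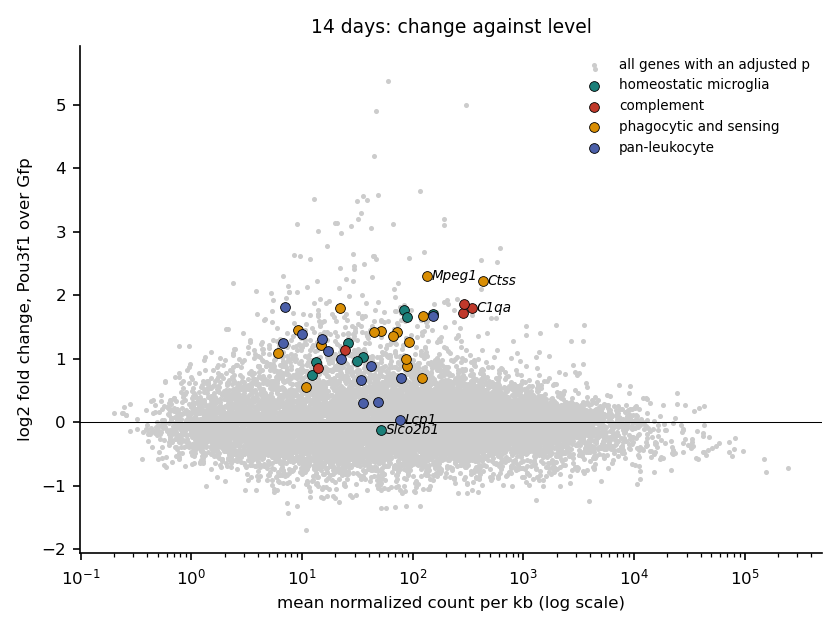
Log2 fold change at 14 days (y axis) against the mean normalized count per kb of the longest coding transcript (x axis, log scale) for all tested genes (grey) and the 43 genes (coloured by role). Mpeg1 and Ctss have the highest values of the 43, and Slco2b1 and Lcp1 lie near 0 at similar levels to genes that rose.

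Levels were compared between genes per kb of the longest coding transcript. At 14 days, mean normalized counts per kb ran from 6.12 for Cd86 to 429 for Ctss, and the 43 genes had a median at percentile 29.0 of all tested genes. C1q chains were next, with 344 for C1qa, 290 for C1qc and 286 for C1qb counts per kb, above the 154 of Csf1r and 152 of Laptm5. The transcription factor genes were low, Spi1 at 17.2 and Ikzf1 at 7.08 counts per kb. Across the 43 genes the log2 fold change was weakly related to the mean count (Pearson r = 0.27 on log10 counts, Spearman rho = 0.27, a description over genes that share libraries).

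Spread among the genes at 14 days was wider than their errors, with an SD of the log2 fold changes of 0.54 against a median SE of 0.26. In 14 of the 43 genes the value lay more than 2 of its own SE from the median of the 43. Above it were C1qa, C1qc, Ctss, Mpeg1, Cd180 and Ikzf1. Below it were Slco2b1, Cyba, Cd14, Coro1a, Lcp1, Inpp5d, Lyn and Irf8, of which 5 are pan-leukocyte, 2 phagocytic and 1 homeostatic.

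Promoter sequence is shown for genes that rose together at 14 days. RefSeq promoter windows (build GRCm38.p6, the assembly of mm10) were found for 30 of the 43 genes, as 39 windows, and the 250 bases before each start were searched on both strands. PU.1 binds purine-rich sites, and the letters GAGGAAG, the core of such a site, were found in 12 of the 39 windows (30.8%, from 11 genes) and in 10.6% of all 32851 windows. The octamer ATGCAAAT, the classical site of POU factors, was found in 0 of the 39 and in 1.60% of all windows, a share at which few or no matches fall in 39 windows. These motifs were chosen, and the genes printed, after 12 motifs had been counted in the same windows. The shorter GAGGAA was in 46.2% of the 39 windows against 23.3% of all, and GGAA in 97.4% against 93.4%. Other motifs counted were also more frequent, such as TTC followed after a gap by GAA (15.4% against 7.17%). GAAA repeated after a gap was in 5.13% against 2.98%, while GGGCGG was less frequent (28.2% against 32.7%). The ratio for GAGGAAG, 2.90, was among the highest of the 12, so its excess was not shown to be particular to this site. A match describes letters in a window, not a bound site.

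The 120-base stretches that follow are written 5′ to 3′ on the strand of the gene, with the match to GAGGAAG, or to its reverse complement CTTCCTC, in capitals. Starts are those of RefSeq, and only stretches that overlap no exon of the GENCODE annotation are printed. They are Trem2 (chr17:48346281-48346400, plus strand), Itgam (chr7:128062520-128062639, plus) and Vav1 (chr17:57278980-57279099, plus). Ctss (chr3:95526666-95526785, plus) and Mpeg1 (chr19:12460650-12460769, plus), the genes with the largest rises, had no match in their 250 bases and are shown for comparison.
Trem2: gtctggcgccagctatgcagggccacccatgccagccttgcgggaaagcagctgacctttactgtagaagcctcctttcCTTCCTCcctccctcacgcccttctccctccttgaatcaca
Itgam: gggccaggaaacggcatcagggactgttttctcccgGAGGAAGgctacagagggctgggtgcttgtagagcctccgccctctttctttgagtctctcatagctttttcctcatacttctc
Vav1: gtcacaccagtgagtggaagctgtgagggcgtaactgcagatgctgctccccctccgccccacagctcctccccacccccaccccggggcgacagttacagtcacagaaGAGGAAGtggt
Ctss: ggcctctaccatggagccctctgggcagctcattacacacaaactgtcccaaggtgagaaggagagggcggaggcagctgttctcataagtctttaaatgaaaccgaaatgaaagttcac
Mpeg1: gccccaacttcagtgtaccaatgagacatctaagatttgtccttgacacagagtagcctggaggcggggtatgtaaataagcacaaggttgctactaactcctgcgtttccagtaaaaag
Matches began 11 bases before the RefSeq start in Vav1, 41 in Trem2 and 84 in Itgam. The genes with a match spanned all roles and included Slco2b1 and Inpp5d, which did not pass at 14 days.

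At 48 h no microglia or macrophage gene passed the test, and levels were low. Of the 43 genes, 21 had an adjusted p, and 0 rose, 0 fell and 21 did not pass (DESeq2, run by the authors), against 1.48% and 1.56% of all 14714 tested genes that rose and fell. At an unadjusted p under 0.05, 2 of the 43 were higher and 3 lower, and the share of all genes was not counted. The other 22 had mean counts below 7.92, the lowest with an adjusted p, and include Tmem119 (2.06), P2ry12 (3.03), Tyrobp (1.69) and Spi1 (2.35) in the authors' deposited table. Among the 43, mean counts ran from 0.705 for Cd86 to 118 for Cyba in the authors' deposited table, with a median of 7.66. The genes' median percentile by count per kb was 3.37 of all tested genes.

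Of the 21 genes tested at 48 h, 14 had a negative log2 fold change without a call, against 50.9% of all tested genes. The lowest was that of Olfml3 at -0.73 ± 0.29 (adjusted p = 0.163), followed by Ctss at -0.58 ± 0.27 and Laptm5 at -0.54 ± 0.24 in the authors' deposited table. Csf1r had -0.49 ± 0.28, Mpeg1 -0.50 ± 0.29 and C1qb -0.43 ± 0.24 in the authors' deposited table. The highest were Unc93b1 at 0.63 ± 0.27 and Coro1a at 0.60 ± 0.27 (adjusted p = 0.214 and 0.247) in the authors' deposited table. By role, the medians over tested genes were -0.42 for 4 homeostatic, -0.28 for 4 complement, 0.05 for 5 phagocytic and 0.0047 for 8 pan-leukocyte genes, against -0.01 over all tested genes. Over all listed members the latter 2 turned negative, at -0.09 and -0.06.

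The responses at 14 days and 48 h were compared directly by a z test on the difference of their log2 fold changes, over 14580 genes with Benjamini-Hochberg adjustment. The 2 tables share no library. Pou3f1 itself had 0.91 ± 0.26 at 48 h and 5.57 ± 0.27 at 14 days in them, and whether the differences follow its level was not tested. Of the 21 genes tested, 13 were higher at 14 days and 0 lower, against 4.48% and 1.66% of all genes. By role, 4 of 4 homeostatic, 4 of 4 complement, 2 of 5 phagocytic and 3 of 8 pan-leukocyte genes were higher at 14 days. The largest differences were those of Mpeg1 (2.81 ± 0.37) and Ctss (2.80 ± 0.34), computed from the authors' deposited table at each time (adjusted p = 1.63e-11 and 2.80e-13). The smallest were those of Coro1a (0.10 ± 0.38), Lyn (0.16 ± 0.39) and Lcp1 (0.17 ± 0.39), each within its SE of 0. Shrinkage at 48 h pulls low-count genes toward 0, which affects the size of these differences.

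Levels in the 2 tables were normalized separately and each averages both groups, so they were set side by side without a test. The mean counts of the 43 genes summed to 834 of 16020800 at 48 h and to 6828 of 38507500 at 14 days. By role the sums at 48 h and 14 days were 104 and 1910 (homeostatic), 77.6 and 1175 (complement), 373 and 2144 (phagocytic), and 280 and 1599 (pan-leukocyte). Mean counts at 48 h and 14 days were 18.1 and 724 for Csf1r, 20.6 and 398 for Cx3cr1, and 1.69 and 74.1 for Tyrobp in the authors' deposited table. Only Cyba had a lower mean count in the 14-day table, with 118 and 91.4 in the authors' deposited table. These mean counts were not scaled to the sums over all genes, which differ as given above.

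In the knockout retina at E17.5, 1 of the 43 genes changed. Ly86, which encodes MD-1, the secreted partner of Cd180, fell by 0.68 on the log2 scale (adjusted p = 0.00216) in the authors' deposited table. Of the 42 genes with an adjusted p, 0 rose, 1 fell and 41 did not pass, against 4.70% and 5.34% of all 14821 tested genes that rose and fell. This table gives no SE and no abundance.

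Although 1 passed, 40 of the 42 tested genes had negative log2 fold changes in the knockout, against 49.2% of all tested genes. Genes of 1 cell type vary together and are not independent observations. At an unadjusted p under 0.05, 11 were lower and 0 higher, and the share of all genes passing in that way was not counted. Nearest the adjusted threshold was Ctss at -0.46 (adjusted p = 0.0518), then Laptm5 at -0.45 (0.0676) and C1qa at -0.44 (0.0693) in the authors' deposited table. Fcrls had -0.43, Selplg -0.43, Inpp5d -0.41 and Mpeg1 -0.36 (adjusted p between 0.0937 and 0.127) in the authors' deposited table. The genes with positive values were Cyba (0.09), Coro1a (0.04) and Cd14 (0.22), which had no adjusted p, in the authors' deposited table. Medians by role were -0.30 for homeostatic, -0.29 for complement, -0.18 for phagocytic and -0.20 for pan-leukocyte genes, against 0.00 over all tested genes.

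**Figure D3:**
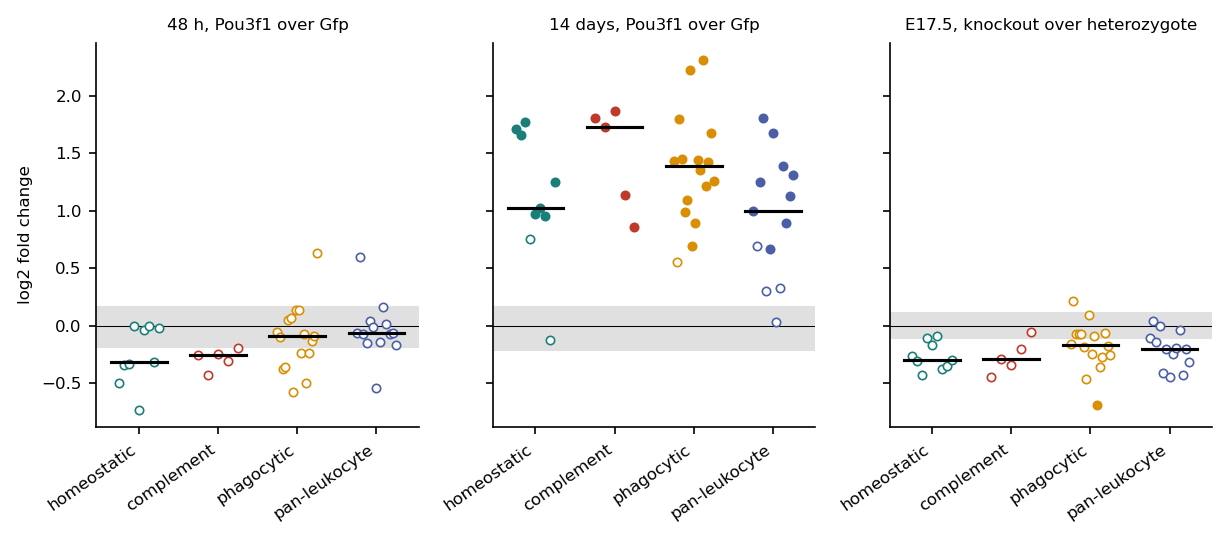
Log2 fold change (y axis) of each gene by role in the 3 comparisons, filled where the adjusted p was under 0.05, with a black line at the median of the role's listed genes and a grey band over the middle quartiles of all tested genes. At 14 days 36 genes are filled, at 48 h 0 and at E17.5 only Ly86.

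Other genes of microglia and of myeloid cells, outside the 43, moved the same way at 14 days. Like the 43, they were chosen with earlier results of these data known, so they are no independent support. Of 38 such genes, 22 rose, 1 fell and 15 did not pass, against 11.5% and 9.21% of all tested genes, with a median of 0.81. Among those with the smallest adjusted p were the endosomal exonuclease gene Pld4 (1.74 ± 0.26), Cybb, the oxidase partner of Cyba (1.87 ± 0.29), and Adgre1, a macrophage surface marker (1.67 ± 0.27) in the authors' deposited table. At 48 h, 1 of 23 rose and 0 fell, against 1.48% and 1.56% of all tested genes. The 1 that rose was Sall1, a transcription factor of microglia and of other tissues, at 1.03 ± 0.30 in the authors' deposited table. At E17.5, 0 of 34 rose and 3 fell, against 4.70% and 5.34% of all tested genes. Those that fell were Lair1 (-0.53), Ctsc (-0.30) and Adgre1 (-0.46) (adjusted p between 0.0276 and 0.0482) in the authors' deposited table.

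Signals that act on microglia were mostly without a call. Of 13 ligands and partners tested at 14 days, 1 rose and 1 fell, no more than the 11.5% and 9.21% of all tested genes. They were Tgfbr1, a TGF-beta receptor, at 0.30 ± 0.10, and Cd47, the surface signal that inhibits phagocytosis, at -0.42 ± 0.13 (adjusted p = 0.0239 and 0.0137) in the authors' deposited table. The Csf1r ligand genes Csf1 and Il34 had 0.13 and -0.64, and the Cx3cr1 ligand gene Cx3cl1 -0.25 in the authors' deposited table, none of them called. At 48 h, 1 of 11 rose (1.48% of all tested genes did), Cd200, a neuronal ligand that restrains microglia, at 1.09 ± 0.24 (adjusted p = 0.000929) in the authors' deposited table. At E17.5, Cx3cl1 (-0.74) and Apoe (-0.38) fell and Cd47 (0.33) rose, of 12 tested (adjusted p between 0.000289 and 0.0395) in the authors' deposited table. Of all tested genes at E17.5, 4.70% rose and 5.34% fell.

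Activation genes had calls in both directions at 14 days. Of 22 tested, 6 rose and 3 fell, against 11.5% and 9.21% of all tested genes, with a median of 0.31. The number that fell was thus near that share. The integrin gene Itgax (1.27 ± 0.30), the lectin gene Clec7a (1.24 ± 0.29) and the protease inhibitor gene Cst7 (0.94 ± 0.29) rose, while the tetraspanin gene Cd9 fell (-0.46 ± 0.11) in the authors' deposited table. Of these genes, mean counts were low for Itgax (13.6), Clec7a (23.8) and Cst7 (9.21) and high for Cd9 (1537) in the authors' deposited table. The list did not divide in this way, since Lpl rose at a mean count of 458 and Gpnmb fell at 67.0. At 48 h 0 of 13 rose and 0 fell. By DESeq2's unadjusted p, 0 passed upward and 2 downward, and the share of all genes was not counted. At E17.5, 3 of 15 fell (5.34% of all tested genes did), led by the growth factor gene Igf1 at -1.06 (adjusted p = 3.74e-10) in the authors' deposited table.

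Of 14 tested complement genes outside C1q and its receptor, 2 rose and 2 fell at 14 days, near the 11.5% and 9.21% of all tested genes. The C3a receptor gene C3ar1 rose by 1.41 ± 0.29 and the alternative pathway factor gene Cfb by 0.55 ± 0.20, while the complement regulators Clu (-1.25 ± 0.21) and Cd59a (-0.76 ± 0.23) fell in the authors' deposited table. Clu is also expressed by Müller glia.

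Genes of other cells were read for comparison at 14 days, when 11.5% of all tested genes rose and 9.21% fell. Border macrophage genes gave 1 rise, Ms4a7 (1.41 ± 0.29), and 1 fall, Lyve1 (-0.62 ± 0.21), of 7 tested in the authors' deposited table. Of monocyte and neutrophil genes, 1 of 4 tested rose, the growth factor receptor gene Csf3r (0.89 ± 0.20), while mean counts of the 10 listed genes ran from 0.225 for S100a9 to 162 for Lcn2 in the authors' deposited table. The median of these counts was 1.64 and 9 of the 13 genes had no adjusted p, so this list says little about those cells. Of 7 lymphocyte genes tested, Cd4 rose (0.88 ± 0.29) and Ms4a1 fell (-0.61 ± 0.23), while mean counts of the 12 listed genes ran from 0.218 for Cd3e to 180 for Cd8a in the authors' deposited table. Of 6 red blood cell genes tested, 1 rose and 1 fell, the latter the globin gene Hba-a1 (-0.79 ± 0.28) in the authors' deposited table. Of 12 blood vessel genes tested, 0 rose and 3 fell, with a median of -0.59.

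Interferon response genes were also higher at 14 days, with 15 of 20 risen, 0 fallen and a median of 1.21. Usp18 and Ifi27 led it, at 3.10 ± 0.27 and 2.74 ± 0.26 in the authors' deposited table. At 48 h 0 of 18 rose and 0 fell (0 at an unadjusted p under 0.05 in either direction, DESeq2 by the authors). Rod genes moved the other way at 14 days (0 of 11 rose, 9 fell, median -0.53), as did Müller glia genes (0 of 8 rose, 5 fell, median -0.40). Whether these shifts bear on the rise of the microglia genes was not tested.

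**Figure D4:**
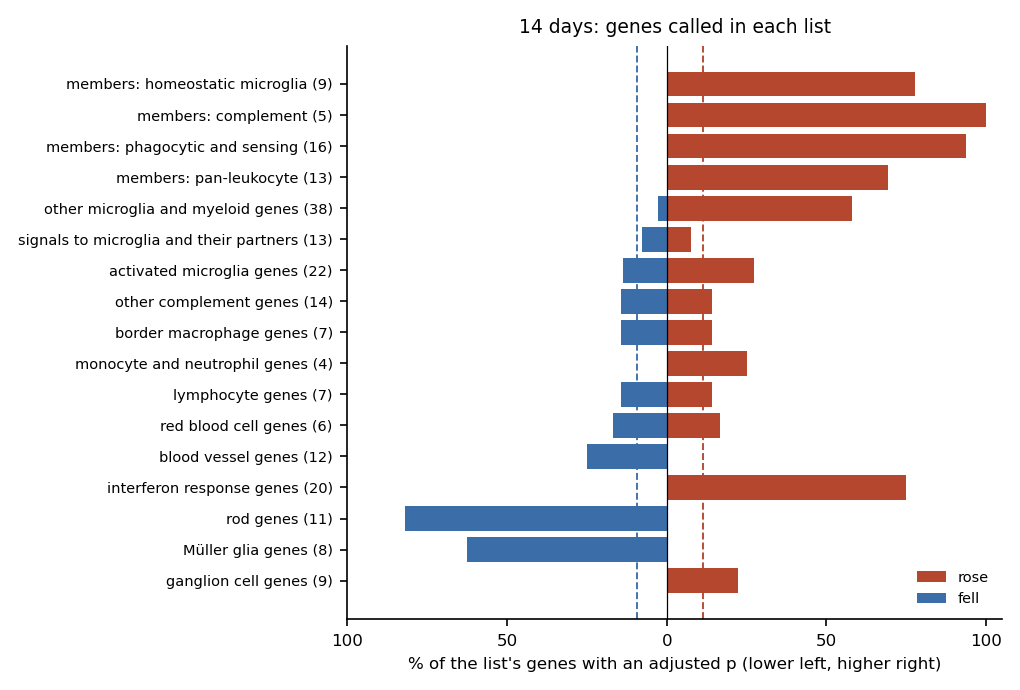
Share of tested genes that rose (red, to the right) or fell (blue, to the left) at 14 days in each role and list (y axis, number tested in parentheses), as a percentage of the list (x axis). Dashed lines mark the shares over all tested genes, 11.5% higher and 9.21% lower, and the 4 roles extend furthest to the right with the interferon list.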

How the data were processed

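RNA-seq was measured in 19 libraries of 6 groups, and each of the 3 tables holds 1 comparison made by the authors. Salmon, DESeq2 and MACS2 with build mm10 are named per the submitters' processing notes; their versions and the design formula are not named there. The log2 fold changes, p-values and adjusted p, and (for overexpression) the SE and the Wald score were deposited by the authors, as was the signal, headed Base mean per the file headers and read as DESeq2's mean normalized count. Recomputed Wald scores differed from the deposited ones by at most 4.45e-07, and Benjamini-Hochberg values from the adjusted p by at most 5.60e-06. The E17.5 direction was read as knockout over heterozygote, since Pou3f1 is then lower; that table's file name gives another embryonic day than the labels used here.

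A gene was called at an adjusted p under 0.05. Differences between 14 days and 48 h were tested by a two-sided z test, checked on simulated data. Lengths and coordinates come from GENCODE release 21 for mouse (mm10), and promoters from RefSeq (GRCm38.p6). Strand handling is not named either. The length used is that of the longest coding transcript, chosen after the median transcript gave implausibly short lengths. Members and lists were chosen with earlier results of these data known, and the 2 promoter motifs after 12 had been counted. Named genes are the 43, Pou3f1 and 10 genes nearest in pattern. From each other list and comparison, up to 4 called genes were named by adjusted p (or 2 by unadjusted p). Genes printed beyond these (Csf1, Il34, Cx3cl1, Lpl and Gpnmb at 14 days, Cd3e, Cd8a, S100a9, Lcn2, Gm49368, Hmgxb3) were chosen after their values were seen. Some genes named by the rule are left out of the text. Other settings tried were a stricter adjusted p (0.01), a fold limit of 2, adjustment with no filter, minimum mean counts (10 or 100) and subtraction of the median. Tools were scipy 1.17.1, numpy 2.4.6, pandas 2.3.3, matplotlib 3.10.9 and Python 3.11.15.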

Additional observations from a re-analysis of the deposited data

Results flagged for a closer look

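In 13 genes the response to added Pou3f1 differed between 14 days and 48 h by the z test over all genes (Benjamini-Hochberg adjusted p under 0.05), each with a higher log2 fold change at 14 days. Among phagocytic genes, Mpeg1 differed by 2.81 and Ctss by 2.80. Complement genes differed by 2.15 (C1qb), 2.11 (C1qc), 2.06 (C1qa) and 1.44 (Itgam). Homeostatic genes differed by 2.20 (Csf1r), 2.10 (Fcrls), 2.00 (Cx3cr1) and 1.70 (Olfml3). Of the pan-leukocyte genes, Laptm5 differed by 2.22, Ptprc by 1.37 and Selplg by 0.97. Adjusted p ran from 2.80e-13 (Ctss) to 0.0322 (Selplg).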

How the results depend on the processing

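Counts of genes called at 48 h stayed at 0 in both directions under every alternative tried. At 14 days the count of 36 became 33 at an adjusted p under 0.01, 28 with a 2-fold limit, 35 adjusted over all genes (Irf8 no longer passed) and 38 over genes with a mean count of at least 10 (Gpr34 and Coro1a then passed). With a mean count of at least 100 it was 14 of the 18 genes left, since fewer genes are tested. At E17.5 the 1 gene that fell (Ly86) became 0 with a 2-fold limit. Genes higher at 14 days than at 48 h numbered 31 rather than 13 when all 43 were tested, where shrunken low counts at 48 h enter, 11 at an adjusted p under 0.01, and 13 with the median of all genes subtracted. With a mean count of at least 100 in both tables, none of the 43 could be tested. The median at 48 h of -0.24 over tested genes was -0.10 over all listed genes and 0.13 with a mean count of at least 100, where 1 gene (Cyba) is left. No paired analysis was possible because the tables hold no values per library, and for the same reason no library could be left out. Low counts limit the 48 h comparison, in which 22 of the 43 genes had no adjusted p.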

Other observations

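Genes outside the 43 with the pattern nearest to theirs were found by the Euclidean distance of the log2 fold changes in the 3 comparisons from the median of the 21 microglia and macrophage genes tested in all 3 (-0.24, 1.26 and -0.26 for 48 h, 14 days and E17.5), among 14002 genes. The nearest were the interleukin-6 receptor gene Il6ra, the MHC class I gene H2-Q7 (distance 0.117), the transporter gene Slc10a4 (0.129), Aff3 (0.136) and the lysosomal transporter gene Slc15a3 (0.153). Asb4 (0.153), Xaf1 (0.158), Epb41l4a (0.190), Fibcd1 (0.196) and C530008M17Rik (0.207) followed. In the authors' deposited table of each comparison Il6ra had -0.25, 1.29 and -0.17, in the same order. Across the 43 genes, the log2 fold changes at 14 days and E17.5 were weakly related (Pearson r = -0.25, Spearman rho = -0.25, a description over genes that share libraries).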
